A study of Xenopus laevis with 37 samples.

Results

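Explants of the hindgut region of Xenopus laevis embryos were compared with explants of the foregut region, both from embryos kept in BIO, a small molecule that blocks the kinase GSK3 and so switches on Wnt signalling through beta-catenin. The compared levels come from 6 of the 37 RNA-seq libraries of the series, 3 of hindgut (HG_BIO) and 3 of foregut (FG_BIO). They were taken by the tissue and treatment in their labels. The spread used in the tests was estimated over all 37 libraries. Embryos labelled wild type were kept in 60 µM BIO from stage NF12 to stage NF20, and the explants' RNA was taken at NF20. The matched vehicle groups had DMSO alone over the same stages (HG_DMSO and FG_DMSO, 3 libraries each), and a further pair had DMH1 at 40 µM, an inhibitor of BMP type I receptor kinases (HG_DMH1 and FG_DMH1, 3 each). Regional genes were also taken from libraries outside the inhibitor experiment. These were foregut and hindgut pieces of unheated embryos with a transgene in which a heat shock promoter drives Dkk1 and GFP (2 libraries each), and foregut and hindgut separated into endoderm and mesoderm (2 libraries each). They too were taken at NF20. Dorsal tissue and heat-shocked transgenic embryos of the series entered the low-value filter and the estimate of the spread, and no comparison. The genotype field says wild type for the transgenic embryos too. The drugs were given to whole embryos.

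Wnt signalling through beta-catenin is known to rise toward the tail of vertebrate embryos, where it turns on the caudal (cdx) and posterior Hox genes. The ventral foregut, which gives rise to liver, pancreas and lung, forms where Wnt activity is kept low by secreted antagonists. When GSK3 is blocked, beta-catenin is no longer marked for destruction and acts on its target genes downstream of Wnt ligands, their receptors and the secreted antagonists. The question the comparison addresses is which differences between the regions stay when the pathway is active in both.

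Values are TPM, transcript levels scaled to a fixed total per library, with 28863 of 40271 features tested. The deposited table holds no read counts, so the depth of each library is unknown and no floor is given for a value listed at 0. In the 6 BIO libraries 21052 to 21559 features reached 1 TPM, and Pearson correlations across genes were 0.958 to 0.978 within a group and 0.921 to 0.962 between the groups. The explants held more than gut. Epidermal genes summed to 26390 to 31040 TPM in FG_BIO and 34710 to 39290 TPM in HG_BIO. Hindgut and tail bud genes summed to 3578, 2930 and 3099 TPM in HG_BIO and to 1345, 1391 and 1566 in FG_BIO. Foregut endoderm genes did not separate the tissues by their sum, at 2812, 2348 and 2792 TPM in FG_BIO and 3226, 2269 and 2878 in HG_BIO. Libraries numbered 1 stood apart from numbers 2 and 3: Hox genes of groups 6 to 13 summed to 1208, 462 and 512 TPM in HG_BIO, muscle genes to 178, 82.1 and 76.1 TPM, and neural plate genes in FG_BIO to 1735, 1174 and 870.0 TPM. The part of such cells in the results was not tested, and counts are therefore also given without the number 1 libraries.

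Under BIO 766 features were higher in hindgut (2.65% of those tested) and 789 were higher in foregut (2.73%), 1555 in all (5.39%), by limma at a Benjamini-Hochberg adjusted p under 0.05. At least 2-fold differences, measured throughout as log2(TPM + 1), made up 567 and 582 of these, and the 3 and 3 libraries did not overlap for 751 and 776, as for 7527 (26.1%) of all features tested. The median difference over all features was −0.01, against 1.33 among the hindgut-high calls and −1.42 among the foregut-high calls. Of the hindgut-high calls 31 were listed at 0 in all FG_BIO libraries, and of the foregut-high calls 38 were listed at 0 in all HG_BIO libraries. In vehicle the regions differed in 688 features that were higher in hindgut (2.38%) and 1467 that were higher in foregut (5.08%), 2155 in all (7.47%). The counts of each gene list below are read beside these shares of all features. The lists were chosen with earlier results of these data known, and some share members, such as sfrp2.S in both Wnt lists. Their counts are therefore a description and not independent of each other. Scaling libraries by the median of ratios moved the vehicle median from −0.12 to −0.00 and the vehicle split to 865 and 1053, and the BIO split to 954 and 658. Blocking on replicate number gave BIO counts of 1251 and 1125. The counts were 395 and 417 without FG_BIO replicate 1, and 369 and 423 without all number 1 libraries. The main counts use the spread over all libraries of the series, and a fit to the groups compared alone gave 378 and 469.

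Of the BIO calls 876 (56.3%) were called in the same direction in vehicle, 396 higher in hindgut and 480 higher in foregut, which was 40.6% of the vehicle calls. The vehicle and BIO comparisons share no library, but they share the estimate of the spread from the fit to all libraries. Same-numbered BIO and vehicle libraries also deviated together, so the calls in the conditions are not independent. A further 369 hindgut-high and 307 foregut-high features were called under BIO only, and 290 and 986 in vehicle only. Passing in one comparison and not in the other does not show a change, so the difference between the regional differences was tested itself. It passed for 239 features (0.828%), 184 of which shifted toward hindgut under BIO (0.637%) and 55 toward foregut (0.191%). The median shift over all features was 0.10. With median-of-ratios scaling this median was 0.03 and the counts were 136 and 48. With the replicate block the counts were 260 and 91. Among the features called in vehicle only, 11 of the hindgut-high and 158 of the foregut-high ones had a called shift. Where both homeologs (.L and .S, the 2 copies of many genes in this genome) were tested, the other copy of a hindgut-high call was also called hindgut-high in 156 of 462 cases (33.8%) and had the same sign in 393. For foregut-high calls these were 216 of 546 (39.6%) and 484. In 3 and 3 cases the other copy was called the opposite way. Among features called in opposite directions in the conditions, and named after their values were seen, were pnhd.L, which encodes a secreted Pinhead protein, hindgut-high in vehicle and foregut-high under BIO, and the homeobox gene dlx2.S, the reverse. For pnhd.L the levels were 27.1, 27.6 and 17.5 TPM in HG_DMSO and 12.5, 15.7 and 15.3 in FG_DMSO, and 44.9, 54.8 and 48.1 TPM in HG_BIO and 126, 96.6 and 101 in FG_BIO.

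**Figure D1:**
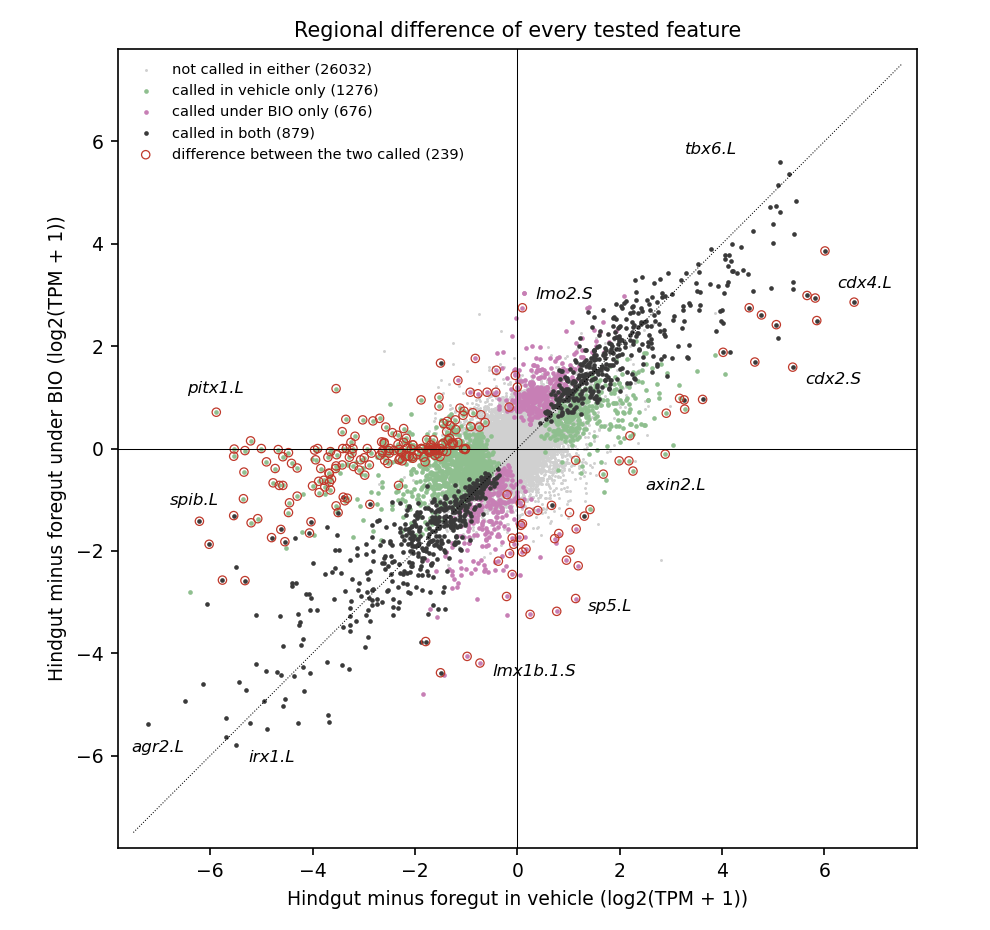
Each point is 1 of the 28863 tested features, with its hindgut minus foregut difference in vehicle on the x axis and under BIO on the y axis (log2(TPM + 1), means of 3 libraries per group). Colours give the calls, red rings the 239 features whose regional difference itself differed between the conditions, and the dotted line equal differences. Of the 184 ringed features that shifted toward hindgut, 159 were not called under BIO, 13 were foregut-high and 12 hindgut-high. The labelled cdx4.L and cdx2.S lie below the dotted line with positive values on both axes.

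Most of the shifts went with a called change in the foregut. Of the 184 features that shifted toward hindgut, 180 were lower in FG_BIO than in FG_DMSO and 0 were lower in HG_BIO than in HG_DMSO, with median BIO-minus-vehicle differences of −2.58 in foregut and −0.05 in hindgut. Of the 55 that shifted toward foregut, 54 were higher in FG_BIO than in FG_DMSO, with medians of 2.53 in foregut and 0.07 in hindgut. Over all features BIO changed 1855 in foregut (6.43%) and 8 in hindgut (0.0277%), by the same test with 3 libraries per group. At an unadjusted p under 0.05 the numbers were 5317 and 1795. These comparisons share libraries with the regional ones and with the test of the shift. The shift is the hindgut change minus the foregut change, so the overlaps and medians above describe it and are no separate result. The foregut count was 1041 to 1175 without FG_DMSO replicate 2 or 3 or without FG_BIO replicate 1 or 3, and 1119 without the number 1 libraries. The hindgut count was 68 with the replicate block and 1 to 25 with 1 hindgut library left out, among them 18 without HG_DMSO replicate 1, 1 without HG_DMSO replicate 2, 2 without HG_DMSO replicate 3, 25 without HG_BIO replicate 1, 3 without HG_BIO replicate 2 and 1 without HG_BIO replicate 3.

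Several genes of the tail bud and of presomitic mesoderm, the tissue that will form somites, were hindgut-high in both conditions. The wider paraxial mesoderm list went both ways. Of its 66 features 11 were hindgut-high and 15 foregut-high under BIO (median −0.02), beside 17 and 7 in vehicle (median 0.08). The T-box gene tbx6.L, which patterns presomitic mesoderm, had 124, 42.4 and 29.6 TPM in HG_BIO and 0, 0 and 0.48 in FG_BIO. Every hindgut library exceeded every foregut library, with replicate 1 the highest, and the difference was 5.59 (SE 0.51, adjusted p = 2.25e-08). Here and below, genes with the largest differences under BIO were picked from these same libraries for being called, at least 2-fold and without overlap. For them these traits are a description and no separate support. In vehicle it was 5.14, from 179, 52.1 and 31.5 TPM in HG_DMSO and 0.55, 0.66 and 1.77 in FG_DMSO. Mesogenin (msgn1), a bHLH factor of the same tissue, had for msgn1.S 36.5, 20.4 and 22.5 TPM in HG_BIO and 0.19, 0.4 and 0.67 in FG_BIO, again with no overlap (log2 difference 4.24, SE 0.35, adjusted p = 5.31e-09). For msgn1.L the foregut level under BIO was spread, with 91.6, 57.7 and 45.8 TPM in HG_BIO and 2.1, 7.13 and 14.2 in FG_BIO, and the difference was 3.12 (SE 0.42, adjusted p = 1.17e-05). Its shift against vehicle was −2.27 (adjusted p = 0.0743), which did not pass, though it did without FG_BIO replicate 1 (adjusted p = 0.00337), without HG_DMSO replicate 3 (0.0371) and without the number 1 libraries (0.0377). The ventral homeobox gene ventx3.2.S, a BMP target, had 81.5, 63.9 and 58.5 TPM in HG_BIO and 0.88, 0.61 and 0.48 in FG_BIO, and the difference of 5.37 (SE 0.46, adjusted p = 8.35e-09) stood beside 5.31 in vehicle. Of 64 tested features in the hindgut and tail bud list, 30 were hindgut-high and 10 foregut-high under BIO (median 0.71, against −0.01 over all features), and 34 and 4 in vehicle (median 1.39). Of the 34, 29 were called the same way under BIO. The shift was called toward foregut for 8 of the 64 and toward hindgut for 0. The 8 became 13 without FG_BIO replicate 3, and the 0 became 1 with the replicate block. BIO changed 22 of the 64 upward in foregut and 3 downward. In a fit to the groups compared alone msgn1.L had adjusted p = 0.0752 under BIO.

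Wnt ligands of the tail were hindgut-high too. Levels of wnt8a.S, which encodes a Wnt ligand of posterior mesoderm, were 25.2, 17.1 and 17.6 TPM in HG_BIO and 0.5, 0.52 and 1.34 in FG_BIO, with no overlap between the groups and a difference of 3.56 (SE 0.39, adjusted p = 5.51e-07). Those of wnt8a.L were 47.1, 24.6 and 41.8 TPM in HG_BIO and 5.63, 4.61 and 4.44 in FG_BIO (log2 difference 2.68, SE 0.47, adjusted p = 0.0004). The ligand of the beta-catenin-independent branch, wnt5a.S, had 15.6, 6.92 and 7.55 TPM in HG_BIO and 0.72, 0.46 and 0.43 in FG_BIO and was likewise hindgut-high (log2 difference 2.76, SE 0.36, adjusted p = 6.99e-06). For none of these 3 features did the test of the shift against vehicle pass, with adjusted p of 1, 0.913 and 1. The ligand wnt3a.L, by contrast, was at 1.7, 2.12 and 1.49 TPM in HG_BIO and 1.37, 0.87 and 1.22 in FG_BIO and did not pass (log2 difference 0.36, SE 0.22, adjusted p = 0.457), while it was hindgut-high in vehicle (log2 difference 1.03, SE 0.22, adjusted p = 0.00223). Its shift was not called (adjusted p = 0.786).

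Posterior Hox genes, which encode homeobox factors that give trunk and tail cells their position, stayed hindgut-high with few exceptions. Of 41 tested Hox features of paralog groups 6 to 13, 33 were hindgut-high under BIO and 0 foregut-high (median 2.70), beside 36 and 0 in vehicle (median 3.51). All 33 had been called the same way in vehicle, and without the number 1 libraries the count was 29. Summed over the 44 such features in the table, the level was 26.2, 28.6 and 50 TPM in FG_BIO and 3.25, 7.07 and 8.65 TPM in FG_DMSO, beside 462 to 1208 TPM in HG_BIO. As an example, hoxb9.S had 74.7, 25.8 and 30.8 TPM in HG_BIO and 0.59, 0.32 and 0.34 in FG_BIO. Hindgut replicate 1 was again the highest library, and the groups did not overlap (log2 difference 4.83, SE 0.33, adjusted p = 2.74e-10). For hoxb8.L the levels were 54.8, 15.7 and 15 TPM in HG_BIO and 0 in all 3 libraries in FG_BIO (adjusted p = 5.51e-07), and hoxb6.L was likewise listed at 0 in every FG_BIO library.

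The 6 Hox features whose shift toward foregut was called lay in paralog groups 4 to 8 (1, 1, 1, 1 and 2 per group). The 2 of these in groups 1 to 5 became 0 without FG_DMSO replicate 1, FG_DMSO replicate 2 or FG_BIO replicate 3. They became 1 without FG_BIO replicate 2, HG_DMSO replicate 3, HG_BIO replicate 2, HG_BIO replicate 3 or the number 1 libraries, and 5 without FG_DMSO replicate 3 and with the replicate block. Summed over the mean levels in FG_DMSO and FG_BIO, group 4 stood at 7.40 and 33.6 TPM, group 6 at 2.04 and 13.0 TPM and group 8 at 0.37 and 11.2 TPM. From group 9 on the sums in FG_BIO stayed small, at 2.78 TPM for group 9 and 0.327 TPM for group 10, where HG_BIO had 134 and 72.3 TPM. The group 7 gene hoxa7.L had 0.17, 0.27 and 0.53 TPM in FG_DMSO and 4.98, 3.31 and 7 in FG_BIO, beside 120.0, 66.3 and 76.8 in HG_BIO. Its 3 FG_BIO libraries were all above the FG_DMSO ones and all below the hindgut, and both the regional difference under BIO (log2 difference 3.86, SE 0.25, adjusted p = 1.03e-10) and the shift (log2 difference −2.15, SE 0.35, adjusted p = 0.000704) passed. The shift of hoxa7.L was lost at a pseudocount of 5 (adjusted p = 0.105) and in a fit to the groups compared alone (adjusted p = 0.0502). Its homeolog hoxa7.S had a mean of 1.16 TPM in FG_BIO, and its shift did not pass (log2 difference −1.21, adjusted p = 0.744). With homeologs summed the shift of hoxa7 passed (log2 difference −2.41, adjusted p = 0.0087). Of 32 features in groups 1 to 5, 10 were hindgut-high and 0 foregut-high under BIO (median 0.91), beside 20 and 1 in vehicle (median 1.63). The 10 became 5 without HG_BIO replicate 1 and 5 without the number 1 libraries, and the 0 became 2 with the replicate block. The 1 in vehicle became 0 without FG_DMSO replicate 2, FG_DMSO replicate 3 or HG_DMSO replicate 2 and 2 with the replicate block. Anterior group 1 features had 0 of 6 called under BIO.

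**Figure D2:**
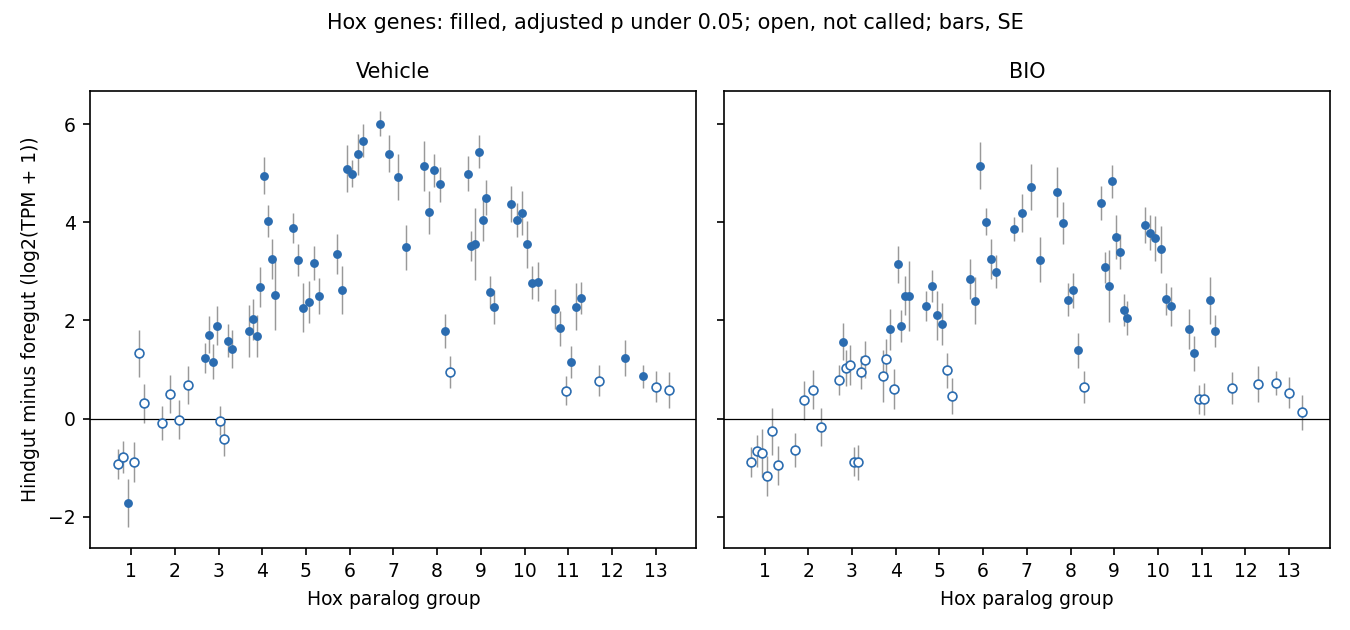
Hindgut minus foregut difference (log2(TPM + 1), with SE) of every tested Hox feature by paralog group on the x axis, in vehicle on the left and under BIO on the right, 3 libraries per group. Filled points passed the test, and those of groups 6 to 10 lie above 1 in both panels, and the medians of groups 2 to 13 are lower under BIO than in vehicle.

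Most caudal features stayed hindgut-high by a smaller margin. Levels of cdx2.S were 375, 272 and 333 TPM in HG_BIO and 84.8, 101 and 142 in FG_BIO, beside 263, 186 and 281 TPM in HG_DMSO and 1.26, 5.68 and 11.7 in FG_DMSO. Every FG_BIO library was above every FG_DMSO library and below every hindgut library, and the regional difference went from 5.38 (SE 0.44, adjusted p = 1.32e-09) in vehicle to 1.59 (SE 0.44, adjusted p = 0.0301) under BIO, a shift of −3.79 (SE 0.63, adjusted p = 0.000911). The BIO call of cdx2.S was lost without any one of FG_BIO replicate 1 (adjusted p = 0.166), FG_BIO replicate 2 (0.0829), HG_BIO replicate 1 (0.101), HG_BIO replicate 2 (0.0553) and HG_BIO replicate 3 (0.0858), and without the number 1 libraries (0.211). Levels of cdx4.L were 377, 183 and 198 TPM in HG_BIO and 29.6, 23.9 and 46.2 in FG_BIO, where FG_DMSO had 0.11, 1.56 and 4.09. Again the foregut under BIO lay between, and the difference of 2.86 (SE 0.40, adjusted p = 2.32e-05) was smaller than that in vehicle (shift −3.72, SE 0.57, adjusted p = 0.000344). The copy cdx1.S did likewise, at 287, 160.0 and 158 TPM in HG_BIO and 18.7, 20.3 and 37.8 in FG_BIO and 1.15, 2.19 and 2.73 in FG_DMSO (regional difference 2.94, shift −2.88, SE 0.52, adjusted p = 0.00246). Its homeolog cdx1.L stayed near 1 TPM in FG_BIO, at 0.95, 0.44 and 1.24 TPM, and its shift did not pass (log2 difference −0.50, SE 0.46, adjusted p = 1). In a fit to the groups compared alone the shifts of cdx2.S, cdx4.L, cdx4.S and cdx2.L had adjusted p of 0.0526, 0.0614, 0.0503 and 0.0502.

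Among genes of the pathway's own feedback, known as direct targets of beta-catenin, the shifts that passed ran toward foregut. The scaffold gene axin2.L, a negative feedback regulator, had 86.7, 65.1 and 62.8 TPM in FG_BIO and 50.1, 51.7 and 53.7 in HG_BIO. In vehicle it had 5.24, 6.37 and 9.56 TPM in FG_DMSO and 38.5, 34.7 and 36.8 in HG_DMSO, so that the foregut went from below every hindgut library to above all of them. Its regional difference was 2.26 (SE 0.33, adjusted p = 2.38e-05) in vehicle and −0.44 (SE 0.33, adjusted p = 0.597) under BIO, which did not pass, and the shift was −2.70 (SE 0.47, adjusted p = 0.00154). That shift had adjusted p = 0.104 without the number 1 libraries. The shift of its homeolog axin2.S did not pass (log2 difference −1.37, adjusted p = 0.235). Under BIO axin2.S was not called (log2 difference −1.02, adjusted p = 0.051), though it was foregut-high in some settings, among them the replicate block (0.0141). With homeologs summed the shift of axin2 passed (log2 difference −2.60, adjusted p = 0.000937). The zinc finger gene sp5.L, a target and repressor in the pathway, had 133, 102 and 100.1 TPM in FG_BIO and 14.3, 8.94 and 19.9 in HG_BIO, beside 0.85, 0.49 and 1.8 TPM in FG_DMSO and 3.11, 3.84 and 3.15 in HG_DMSO. It was foregut-high under BIO (log2 difference −2.93, SE 0.38, adjusted p = 8.23e-06) and not called in vehicle (log2 difference 1.14, SE 0.38, adjusted p = 0.0735), and the shift was −4.07 (SE 0.54, adjusted p = 6.45e-05). Its copy sp5.S had 62.3, 31.2 and 23.4 TPM in FG_BIO and 3.88, 1.27 and 5.04 in HG_BIO (log2 difference −3.18, SE 0.45, adjusted p = 2.2e-05, shift −3.95). The beta-catenin partner lef1.S passed as foregut-high under BIO (log2 difference −1.15, SE 0.34, adjusted p = 0.04) from 46.1, 25.6 and 28.7 TPM in FG_BIO and 24.2, 10.2 and 11 in HG_BIO, and lost the call without FG_BIO replicate 1 (adjusted p = 0.277), FG_BIO replicate 3 (0.0655), HG_BIO replicate 2 (0.219) or HG_BIO replicate 3 (0.174), with no filter (0.057), with median-of-ratios scaling (0.0566), with homeologs summed (0.0528) and in a fit to the groups compared alone (0.187). For nkd1.L, an inhibitor of Dishevelled, levels were 19.1, 15.8 and 11.5 TPM in FG_BIO and 12.7, 14.6 and 10.9 in HG_BIO and overlapped. Of 71 tested features in the Wnt feedback and target list 13 were hindgut-high and 13 foregut-high under BIO (median −0.10), beside 20 and 8 in vehicle (median 0.17). The shift was called toward foregut for 14 and toward hindgut for 0 of them, or 12 without the number 1 libraries. BIO changed 27 of the 71 upward in foregut and 4 downward, against 0 and 1 in hindgut. Over all features, the 8 changed in hindgut were, with symbols and named after their values were seen, lum.L, nmd3.L, rcl1.L and trmt6.L, higher with BIO, hexim1.L and sfrp2.S, lower with BIO, and 2 features with a model ID only. The proteoglycan gene lum.L had 7.32, 9.13 and 11.6 TPM in HG_BIO and 1.02, 0.77 and 2.51 in HG_DMSO (log2 difference 2.14, SE 0.36, adjusted p = 0.0267).

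**Figure D3:**
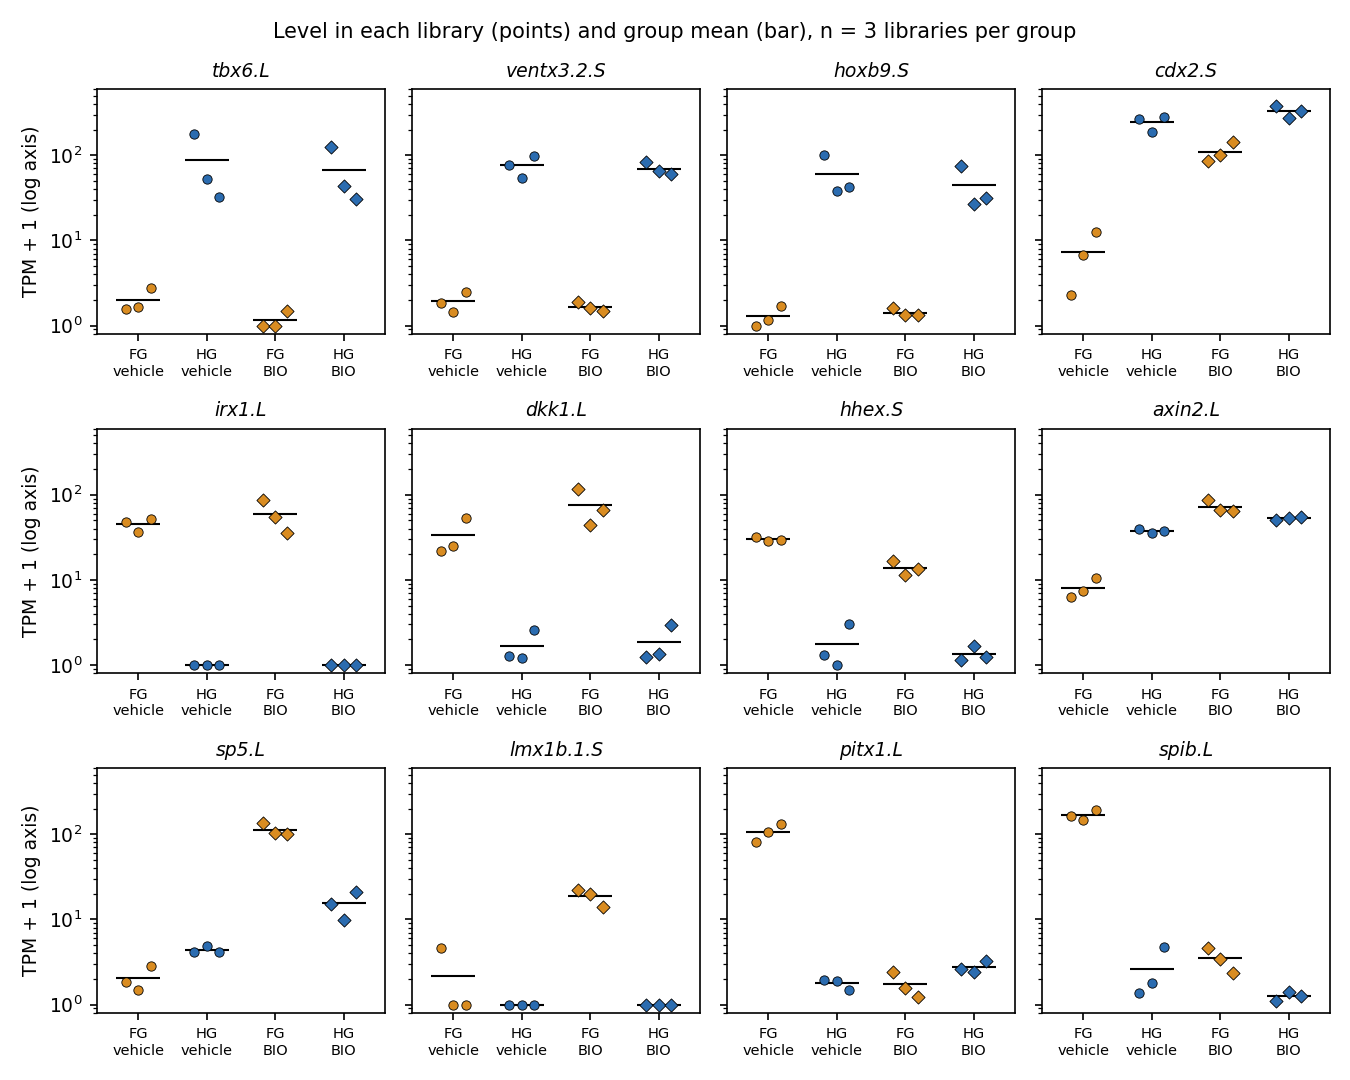
TPM + 1 on a log axis in each of 3 libraries (points) of the vehicle groups (circles) and BIO groups (diamonds), foregut in orange and hindgut in blue, with the group mean as a bar. The top row and the first 3 panels of the middle row hold genes called in the same direction in both conditions, axin2.L and pitx1.L were regional in vehicle only, and sp5.L and lmx1b.1.S were foregut-high under BIO only.

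Several secreted Wnt antagonists stayed foregut-high. The LRP co-receptor antagonist gene dkk1.L had 116, 43.6 and 65.7 TPM in FG_BIO and 0.25, 0.35 and 1.97 in HG_BIO, with every foregut library far above every hindgut library. In vehicle the values were 21, 24 and 51.7 TPM in FG_DMSO and 0.29, 0.2 and 1.56 in HG_DMSO. The regional difference was −5.36 (SE 0.43, adjusted p = 3.13e-09) under BIO and −4.28 in vehicle. For dkk1.S the foregut level itself was higher with BIO, at 113, 37.1 and 97 TPM against 11.4, 12.2 and 28.6 in FG_DMSO (log2 difference 2.15, SE 0.46, adjusted p = 0.00352), and the regional difference was −5.34 (SE 0.46, adjusted p = 8.35e-09). The secreted frizzled-related genes sfrp5.L and sfrp5.S, ventral foregut antagonists of Wnt ligands, differed by −2.43 (SE 0.30, adjusted p = 2.63e-06) and −2.46 (SE 0.34, adjusted p = 2.19e-05), sfrp5.S with 10.9, 8.82 and 14 TPM in FG_BIO and 0.89, 1.18 and 1.59 in HG_BIO. Levels of sfrp2.S were 53.3, 30.8 and 36 TPM in FG_BIO and 0.36, 0.31 and 0.34 in HG_BIO (log2 difference −4.90, SE 0.33, adjusted p = 2.32e-10), where FG_DMSO had 175, 75 and 116. The test of the shift did not pass for these 5 features. In all, 17 of 60 ligand and antagonist features were foregut-high under BIO and 8 hindgut-high (median −0.15), beside 13 and 15 in vehicle (median 0.00), and 6 had a called shift toward foregut and 0 toward hindgut. Among the 17 was wnt8b.S, a ligand of the forebrain, at 21.9, 9.34 and 5 TPM in FG_BIO and 0.43, 0.24 and 0.19 in HG_BIO (log2 difference −3.13, SE 0.34, adjusted p = 4.59e-07). Its shift passed without FG_BIO replicate 3 (adjusted p = 0.0194), and did not with all libraries (adjusted p = 0.178).

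Part of the foregut endoderm genes stayed foregut-high. The homeobox gene hhex.S, needed for liver and ventral foregut, had 15.9, 10.5 and 12.5 TPM in FG_BIO and 0.13, 0.69 and 0.23 in HG_BIO. The groups did not overlap, and the difference was −3.38 (SE 0.51, adjusted p = 6.69e-05) beside −4.25 in vehicle, where the foregut stood at 31.1, 27.6 and 28.3 TPM. The pancreatic homeobox gene pdx1.L had 3.94, 9.76 and 20.1 TPM in FG_BIO and 0.2, 0.99 and 0.7 in HG_BIO and was foregut-high in both conditions (log2 difference −2.70, SE 0.59, adjusted p = 0.00466 under BIO and −2.33 in vehicle). Its homeolog pdx1.S was not called under BIO (log2 difference −0.46, adjusted p = 0.198). With homeologs summed pdx1 was foregut-high (adjusted p = 0.00489). Levels of ptf1a.L, a pancreatic bHLH factor, were under 1 TPM in every library of these groups. The list of 58 features had 18 foregut-high and 5 hindgut-high under BIO (median −0.42), and 24 and 5 in vehicle (median −0.78), with 16 foregut-high in both. The 5 became 3 without FG_BIO replicate 2, and in vehicle 3 without FG_DMSO replicate 1, FG_DMSO replicate 3, HG_DMSO replicate 1 or HG_DMSO replicate 2. Among the 5 that went against the list's name were both copies of nr5a2, an orphan nuclear receptor of endoderm, nr5a2.S with 36.5, 34.8 and 41.8 TPM in HG_BIO and 2.31, 3.74 and 7.68 in FG_BIO (log2 difference 2.91, SE 0.36, adjusted p = 2.91e-06). Fitted to the groups compared alone, pdx1.L had adjusted p = 0.0811.

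Several homeobox and other factors of the anterior neural plate, head and pharynx were foregut-high in both conditions. The Iroquois gene irx1.L had 86.7, 54.4 and 34.7 TPM in FG_BIO and 0 in all 3 libraries in HG_BIO (adjusted p = 2.9e-10), and irx3.S had 79.5, 38.3 and 45 TPM in FG_BIO and 0.31, 0.11 and 0.14 in HG_BIO (log2 difference −5.47, SE 0.46, adjusted p = 6.71e-09). Both were foregut-high in vehicle as well. The head homeobox gene otx2.L had 90.8, 61.7 and 10.3 TPM in FG_BIO and 0, 0 and 0.12 in HG_BIO, with replicate 3 the lowest foregut library and still above all hindgut libraries (log2 difference −5.27, SE 0.45, adjusted p = 8.35e-09). The SoxB1 gene sox3.L, of neural progenitors, had 78.3, 52.9 and 43.8 TPM in FG_BIO and 1.07, 1.94 and 0.64 in HG_BIO (log2 difference −4.74, SE 0.33, adjusted p = 2.9e-10), and the pharyngeal T-box gene tbx1.L had 70.4, 37.3 and 55.6 TPM in FG_BIO and 2.27, 0.93 and 0.33 in HG_BIO (log2 difference −4.72, SE 0.38, adjusted p = 3.13e-09). These 5 had no called shift. Of 80 neural plate and proneural features 26 were foregut-high and 2 hindgut-high under BIO (median −0.61), beside 32 and 4 in vehicle (median −0.85), and 21 were foregut-high in both. Without the number 1 libraries, of which FG_BIO had the highest neural plate sum, the BIO counts were 24 and 2. The vehicle counts of 32 and 4 became 21 without FG_DMSO replicate 1 and 2 without FG_DMSO replicate 2. Of these list features 12 were listed at 0 in all HG_BIO libraries and 2 in all FG_BIO libraries.

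Some cement gland and anterior head genes stayed foregut-high, at a much lower foregut level. The cement gland gene agr2.L, which encodes a protein disulfide isomerase of secretory cells, had 288, 429 and 75.5 TPM in FG_BIO and 5.21, 3.1 and 4.09 in HG_BIO, where FG_DMSO had 2069, 2591 and 3128. Every FG_BIO library was below every FG_DMSO library and above every hindgut library, with a regional difference of −5.39 (SE 0.53, adjusted p = 7.76e-08) under BIO and a foregut response to BIO of −3.60 (SE 0.53, adjusted p = 4.33e-05). Summed over the list the level was 1334, 1607 and 421 TPM in FG_BIO, 144 to 168 TPM in HG_BIO and 7020 to 10320 TPM in FG_DMSO. Of its 32 features 14 were foregut-high and 1 hindgut-high under BIO (median −0.61), beside 26 and 0 in vehicle (median −3.50). Of the 26, 12 were not called under BIO, and 9 features of the list had a called shift toward hindgut. The 1 hindgut-high under BIO became 0 without FG_BIO replicate 3 or HG_BIO replicate 1 and 2 with the replicate block. In these mixed explants fewer cells of a type and less RNA per cell cannot be told apart.

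Other genes were foregut-high in vehicle and not called under BIO, with called shifts. The homeobox gene pitx1.L, of the oral ectoderm and cement gland, had 80.7, 105 and 129.8 TPM in FG_DMSO and 0.96, 0.9 and 0.5 in HG_DMSO but 1.38, 0.58 and 0.22 TPM in FG_BIO and 1.64, 1.39 and 2.21 in HG_BIO. Under BIO all 6 libraries were low, the foregut ones just below the hindgut ones, the difference of 0.71 (SE 0.53, adjusted p = 0.588) did not pass, and the shift was 6.59 (SE 0.75, adjusted p = 8.63e-06). The retinoic acid degrading enzyme gene cyp26c1.S had 52.5, 96.5 and 122 TPM in FG_DMSO and 3.11, 1.44 and 0.26 in HG_DMSO, and 1.79, 0.55 and 0.27 TPM in FG_BIO and 0.78, 1.13 and 0.99 in HG_BIO, with a shift of 5.36 (SE 0.58, adjusted p = 4.72e-06).

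Primitive myeloid genes, of the first macrophage-like blood cells, had shifts in the same direction. The ETS factor gene spib.L, which marks their precursors in Xenopus, had 163, 146 and 193 TPM in FG_DMSO and 0.35, 0.78 and 3.77 in HG_DMSO, and 3.66, 2.45 and 1.33 TPM in FG_BIO and 0.09, 0.42 and 0.26 in HG_BIO. Every FG_BIO library was far below every FG_DMSO library, and the shift was 4.79 (SE 0.60, adjusted p = 3.81e-05). A small difference remained under BIO (log2 difference −1.42, SE 0.42, adjusted p = 0.046), which was not called without any one of FG_BIO replicate 1 (adjusted p = 0.265), FG_BIO replicate 2 (0.107), HG_BIO replicate 1 (0.134), HG_BIO replicate 2 (0.0872) and HG_BIO replicate 3 (0.109). It was also lost without the number 1 libraries (0.455), at a pseudocount of 5 (0.416), with no filter (0.067), with median-of-ratios scaling (0.0928), with homeologs summed (0.104) and in a fit to the groups compared alone (0.0715). The myeloperoxidase gene mpo.S fell in foregut with BIO (log2 difference −3.65, SE 0.67, adjusted p = 0.00076) but stayed foregut-high, at 40.0, 60.9 and 20.2 TPM in FG_BIO and 0.47, 0.17 and 0.11 in HG_BIO (log2 difference −4.93, SE 0.67, adjusted p = 1.35e-05). Its homeolog mpo.L was not called under BIO (log2 difference −0.26, adjusted p = 0.894) and had a called shift of 4.64 (adjusted p = 0.000217). Of 31 list features 21 were foregut-high and 0 hindgut-high in vehicle (median −1.83), against 4 and 1 under BIO (median −0.17), and 14 had a called shift toward hindgut and 1 toward foregut. Without the number 1 libraries those shifts numbered 8 and 0. The BIO count of 4 became 2 without FG_BIO replicate 1 or any one HG_BIO replicate, and the 1 shift toward foregut (cebpe.L) was lost without any one of the 12 libraries. The list summed to 1067, 965 and 1437 TPM in FG_DMSO, 85.6, 102 and 58.1 in FG_BIO and 24.0, 32.8 and 29.9 in HG_BIO, and 5 and 7 of its features were at 0 in all FG_BIO and all HG_BIO libraries.

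Heart and blood genes also had called shifts toward hindgut. The heart field gene nkx2-5.S had 70.4, 55.7 and 58 TPM in FG_DMSO and 1.2, 0.32 and 0.29 in HG_DMSO, and 10.4, 8.38 and 3.13 TPM in FG_BIO and 0.39, 0.11 and 0.35 in HG_BIO, so that it stayed foregut-high (log2 difference −2.58, SE 0.32, adjusted p = 3.82e-06) at a lower level (shift 2.74, SE 0.46, adjusted p = 0.000952). With a pseudocount of 0.1 that shift had adjusted p = 0.308. Its homeolog nkx2-5.L overlapped under BIO, with 11.7, 5.9 and 1.76 TPM in FG_BIO and 2.02, 1.03 and 0.93 in HG_BIO (log2 difference −1.45, SE 0.53, adjusted p = 0.127). It was called foregut-high without FG_BIO replicate 3 (adjusted p = 0.029) and with the homeologs summed (adjusted p = 0.000707). Of 61 lateral plate and cardiac features 11 were foregut-high and 4 hindgut-high under BIO (median −0.17), beside 22 and 6 in vehicle (median −0.50), with 9 called shifts toward hindgut and 0 toward foregut. Of 45 blood and endothelium features 6 and 3 were called under BIO (median 0.00), beside 19 and 0 in vehicle (median −0.77), with 7 shifts toward hindgut, or 3 without the number 1 libraries. Among them was lmo2.S, a LIM-only cofactor of blood progenitors, which was not regional in vehicle (log2 difference 0.10, SE 0.31, adjusted p = 0.934) and hindgut-high under BIO. Its levels were 31.4, 48 and 47.1 TPM in HG_BIO and 5.23, 5.58 and 5.05 in FG_BIO, beside 86.7, 37.5 and 47.3 in FG_DMSO, and the regional difference was 2.75 (SE 0.31, adjusted p = 9.54e-07). The progenitor factor tal1.S fell in foregut (log2 difference −3.08, SE 0.42, adjusted p = 1.31e-05) and was at 0.58, 2.56 and 2.74 TPM in HG_BIO and 1.78, 1.8 and 0.98 in FG_BIO, with overlap.

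Some factors of the neural plate border, neural crest and dorsal midline were called foregut-high under BIO and not in vehicle. The LIM homeobox gene lmx1b.1.S had 21.3, 18.7 and 12.8 TPM in FG_BIO and 0 in all 3 libraries in HG_BIO, while in vehicle 1 of 6 libraries was above 0, FG_DMSO replicate 1 at 3.57 TPM. The paired box gene pax3.L, of the neural plate border and dermomyotome, had 20.5, 18.9 and 11.2 TPM in FG_BIO and 4.9, 1.84 and 1.67 in HG_BIO and a vehicle foregut level of 0.97, 0.39 and 0.17 TPM. Its difference under BIO (log2 difference −2.29, SE 0.54, adjusted p = 0.00909) was lost without FG_BIO replicate 1 (adjusted p = 0.0602), HG_BIO replicate 2 (0.0521) or HG_BIO replicate 3 (0.0538), at a pseudocount of 0.1 (0.0865) and in a fit to the groups compared alone (0.0566). The repressor gene hes2.L had 12.2, 10.8 and 14.3 TPM in FG_BIO and 0.25, 1.27 and 0 in HG_BIO (log2 difference −3.24, SE 0.52, adjusted p = 0.000135, shift −3.49, SE 0.74, adjusted p = 0.0119). The shift of hes2.L was lost at a pseudocount of 0.1 (adjusted p = 0.303), without HG_DMSO replicate 2 (0.0516) and without the number 1 libraries (0.0778). The crest factor foxd3.L had 36, 3.49 and 5.65 TPM in FG_BIO and 0, 0 and 0.26 in HG_BIO, with replicate 1 far above the others (log2 difference −3.26, SE 0.60, adjusted p = 0.000667), and its shift did not pass (log2 difference −3.05, SE 0.84, adjusted p = 0.11), though it did with the replicate block (adjusted p = 0.0179) and without FG_BIO replicate 2 (adjusted p = 0.0307). Fitted to the groups compared alone, foxd3.L had adjusted p = 0.113 under BIO. Of 48 neural crest features 10 were foregut-high and 6 hindgut-high under BIO (median −0.39), beside 3 and 5 in vehicle (median −0.08). The 10 became 4 without FG_BIO replicate 1, 6 without HG_BIO replicate 2 and 6 without HG_BIO replicate 3, and the 6 became 3 without the number 1 libraries. The 3 in vehicle became 1 without FG_DMSO replicate 1 or HG_DMSO replicate 2, 5 without FG_DMSO replicate 3 and 6 with the replicate block. The shift was called for 1 crest feature toward foregut and 2 toward hindgut, 4 of the former with the replicate block, and 0 and 0 without the number 1 libraries. Among the hindgut-high members with a shift toward hindgut was dlx2.S, at 12.5, 14.1 and 7.03 TPM in HG_BIO and 2.59, 5.33 and 1.21 in FG_BIO. Its difference was 1.67 (SE 0.41, adjusted p = 0.0108) under BIO and −1.50 in vehicle, with a shift of 3.18 (SE 0.57, adjusted p = 0.00242).

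Of 48 notochord and midline features 8 were foregut-high and 2 hindgut-high under BIO (median −0.48), beside 14 and 1 in vehicle (median −0.47). Of the 14, 11 were not called under BIO, and the shift was called toward hindgut for 4 features of the list and toward foregut for 0. The midline homeobox gene not.S, called foregut-high under BIO and not in vehicle, had 12.6, 5.43 and 0.87 TPM in FG_BIO and 0, 0 and 0.16 in HG_BIO (log2 difference −2.38, SE 0.40, adjusted p = 0.000242), with FG_BIO replicate 3 near the vehicle foregut, which had 1.17, 0.67 and 0. Without that library its shift passed (adjusted p = 0.000382), which it did not with all libraries (log2 difference −1.95, SE 0.57, adjusted p = 0.146). The BMP antagonist gene chrd.S had 64.1, 18 and 29.4 TPM in FG_BIO and 0.28, 0.21 and 0.13 in HG_BIO, beside 14.5, 0.97 and 1.3 in FG_DMSO, and was called foregut-high under BIO only (log2 difference −4.80, SE 0.67, adjusted p = 1.92e-05). Its shift was −2.95 (SE 0.94, adjusted p = 0.239), and passed without FG_DMSO replicate 1 (adjusted p = 0.0157). With the replicate block the BIO counts were 14 and 5, and the 8 became 5 without HG_BIO replicate 3 and 5 without the number 1 libraries. The 2 became 1 without FG_BIO replicate 2 or HG_BIO replicate 2, 0 without FG_BIO replicate 3 and 4 without the number 1 libraries, and the 14 in vehicle became 9 without HG_DMSO replicate 2. The 1 in vehicle became 0 without any one of FG_DMSO replicates 1, 2 and 3 and HG_DMSO replicates 2 and 3, and 2 with the replicate block. The 0 shifts toward foregut became 1 with the block or without FG_DMSO replicate 1 and 2 without FG_BIO replicate 3. In a fit to the groups compared alone not.S had adjusted p = 0.157 under BIO.

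**Figure D4:**
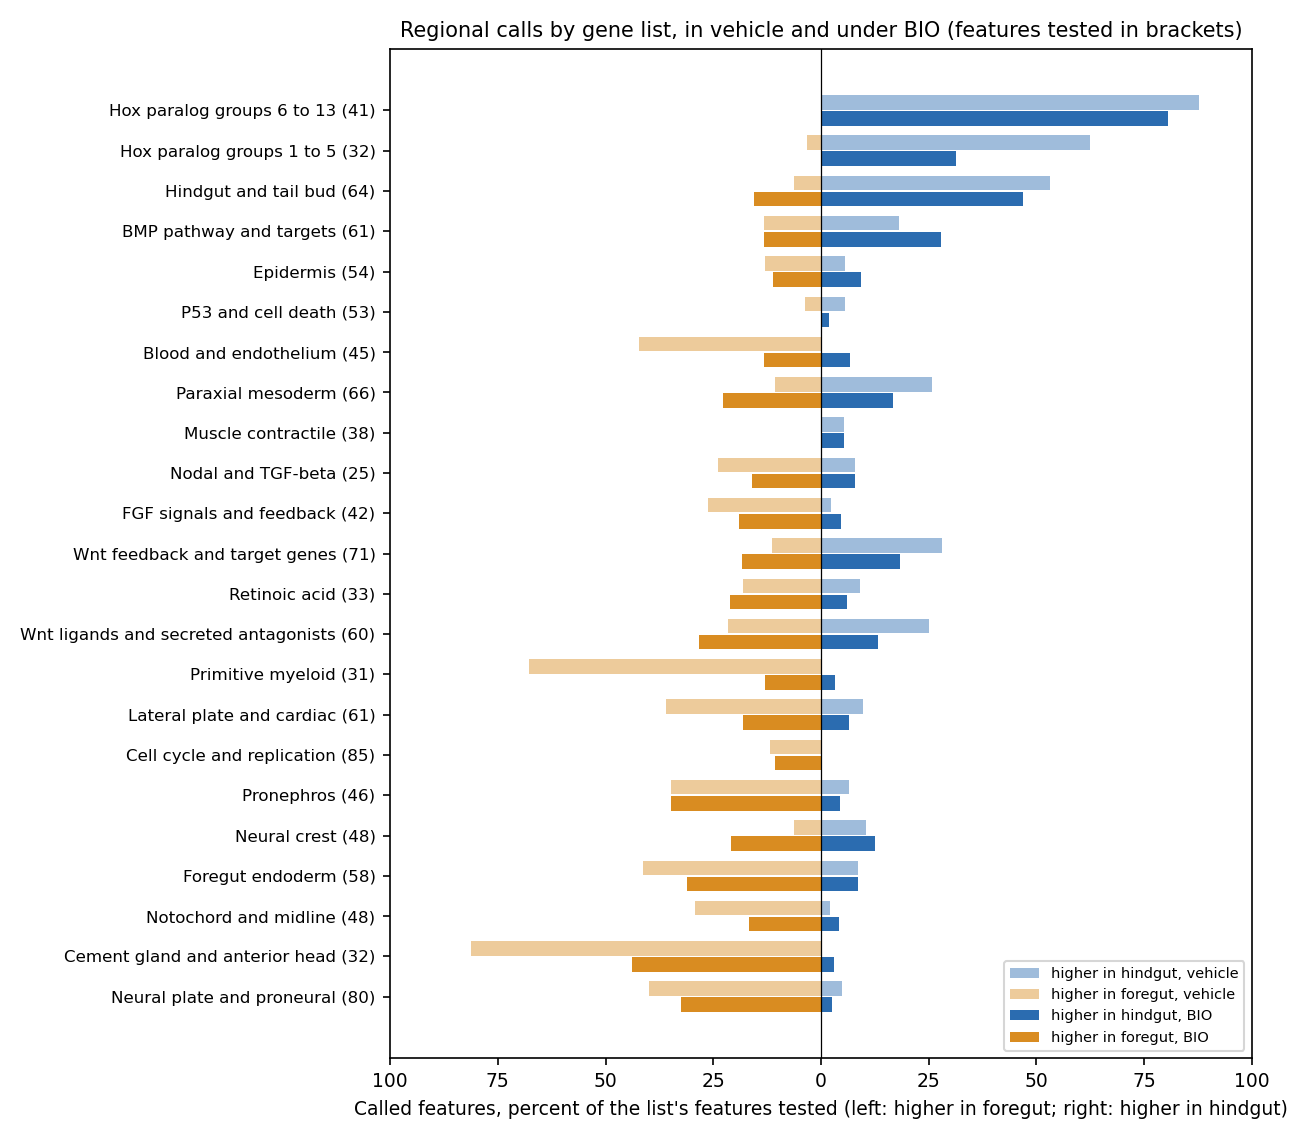
For each gene list, the percent of its tested features called higher in hindgut (blue, to the right) and higher in foregut (orange, to the left), in vehicle (pale) and under BIO (dark), 3 libraries per group. Hox groups 6 to 13 show 36 and 33 of 41 features to the right, and primitive myeloid genes 21 and 4 of 31 to the left.

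Of 61 BMP pathway and target features 17 were hindgut-high under BIO and 11 in vehicle, with 8 foregut-high in each (medians 0.42 and −0.11). The antagonists chrd.S and follistatin (fst.L, with 6.77, 4.86 and 6.61 TPM in FG_BIO and 0 in all 3 libraries in HG_BIO) were foregut-high, while the target ventx1.1.L, a ventral homeobox gene, was hindgut-high at 57.3, 76.4 and 66.5 TPM in HG_BIO and 9.5, 5.44 and 7.28 in FG_BIO (log2 difference 3.03, SE 0.28, adjusted p = 2.8e-08). The pseudoreceptor gene bambi.S, a BMP target, had 74.6, 121 and 88.1 TPM in HG_BIO and 45.9, 57.9 and 49.6 in FG_BIO and was hindgut-high (log2 difference 0.85, SE 0.24, adjusted p = 0.0302), and not in vehicle (log2 difference 0.19, SE 0.24, adjusted p = 0.767). That call was lost without FG_BIO replicate 1 (adjusted p = 0.157), FG_BIO replicate 3 (0.085), HG_BIO replicate 2 (0.209) or HG_BIO replicate 3 (0.0659), without the number 1 libraries (0.112), with homeologs summed (0.121) and in a fit to the groups compared alone (0.0973). For szl.L, sizzled, a BMP target that restrains Chordin breakdown, levels overlapped at 48, 220.2 and 183 TPM in HG_BIO and 8.76, 79.6 and 62.4 in FG_BIO, and its difference passed only with the replicate block (adjusted p = 0.0337, against 0.16). The target msx1.L was not called under BIO (log2 difference 0.75, SE 0.32, adjusted p = 0.215), at 266, 388 and 445 TPM in HG_BIO and 186, 212 and 244 in FG_BIO. The shift was called for 1 feature of the list, toward hindgut, for 4 with the replicate block and for 2 without HG_BIO replicate 2, and without FG_DMSO replicate 1 for 2 toward hindgut and 1 toward foregut. The 17 became 11 without the number 1 libraries, and the 8 became 4 without FG_BIO replicate 1, 5 without FG_BIO replicate 2, 4 without HG_BIO replicate 3 and 4 without the number 1 libraries. The 8 in vehicle became 5 without FG_DMSO replicate 1, FG_DMSO replicate 3 or HG_DMSO replicate 2.

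Of 33 retinoic acid features 7 were foregut-high and 2 hindgut-high under BIO (median −0.10), beside 6 and 3 in vehicle (median −0.30), and the 7 became 4 without FG_BIO replicate 1. The synthesis enzyme gene aldh1a2.L was foregut-high under BIO at 46.5, 101 and 102 TPM in FG_BIO and 8.02, 21.8 and 15.8 in HG_BIO (log2 difference −2.39, SE 0.39, adjusted p = 0.000167), and not called in vehicle (log2 difference −0.66, SE 0.39, adjusted p = 0.426). Its level in foregut was higher with BIO (log2 difference 1.35, SE 0.39, adjusted p = 0.0338), from 21.6, 45.9 and 27.2 TPM, while the shift did not pass (adjusted p = 0.236). The retinol dehydrogenase gene rdh10.L, the step before, had 407, 303 and 315 TPM in FG_BIO and 50.2, 58.1 and 53.3 in HG_BIO (log2 difference −2.63, SE 0.29, adjusted p = 4.67e-07). On the hindgut side stood the degrading enzyme gene cyp26a1.L, at 116, 118 and 119 TPM in HG_BIO and 18.9, 31.7 and 46.7 in FG_BIO (log2 difference 1.92, SE 0.31, adjusted p = 0.000139), and the receptor gene rara.L (log2 difference 1.66, SE 0.25, adjusted p = 4.77e-05). Other features of degrading enzymes were not called under BIO, cyp26a1.S at 47.5, 25.3 and 23.9 TPM in HG_BIO and 10.1, 21.9 and 24 in FG_BIO (log2 difference 0.78, SE 0.42, adjusted p = 0.374), and cyp26c1.S (log2 difference 0.15, SE 0.41, adjusted p = 0.944). With homeologs summed cyp26a1 was hindgut-high (adjusted p = 0.00173). In a fit to the groups compared alone aldh1a2.L and cyp26a1.L had adjusted p of 0.0709 and 0.0517.

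Of 42 FGF features 8 were foregut-high and 2 hindgut-high under BIO (median −0.07), beside 11 and 1 in vehicle (median −0.45). Over all features tested 2.73% were foregut-high and 2.65% hindgut-high under BIO. The ligand gene fgf8.S had 16, 12 and 11.4 TPM in FG_BIO and 1.64, 1.19 and 2.71 in HG_BIO (log2 difference −2.33, SE 0.39, adjusted p = 0.000208), and fgf10.L, a ligand made by mesenchyme, was hindgut-high at 11, 3.55 and 4.54 TPM in HG_BIO and 0.79, 0.41 and 0.68 in FG_BIO (log2 difference 2.05, SE 0.42, adjusted p = 0.00252). The 8 became 3 without FG_BIO replicate 1, 3 without HG_BIO replicate 2, 5 without HG_BIO replicate 3 and 4 without the number 1 libraries, and the 2 became 1 without FG_BIO replicate 2, FG_BIO replicate 3, HG_BIO replicate 1, HG_BIO replicate 3 or the number 1 libraries. The 1 in vehicle became 2 without HG_DMSO replicate 3 and 3 with the replicate block. Fitted to those groups alone, fgf10.L had adjusted p = 0.0692. Of 25 Nodal and TGF-beta features 4 were foregut-high and 2 hindgut-high (median −0.06), beside 6 and 2 in vehicle, and the 4 became 2 without FG_BIO replicate 1 and 1 without the number 1 libraries. The 2 hindgut-high under BIO became 1 without FG_BIO replicate 2, FG_BIO replicate 3, HG_BIO replicate 1 or HG_BIO replicate 2. The activin subunit gene inhbb.S had 4.77, 2.79 and 0.91 TPM in FG_BIO and 0, 0.23 and 0.52 in HG_BIO (log2 difference −1.49, SE 0.27, adjusted p = 0.000647), and passed neither without the number 1 libraries (adjusted p = 0.103) nor in a fit to the groups compared alone (adjusted p = 0.144).

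Of 46 pronephros features 16 were foregut-high and 2 hindgut-high under BIO (median −0.34), as were 16 and 3 in vehicle (median −0.60), and the 16 became 10 without the number 1 libraries, and in vehicle the count was 10 if FG_DMSO replicate 1 or HG_DMSO replicate 2 was dropped. The hindgut-high 2 became 1 without FG_BIO replicate 3, any one HG_BIO replicate or the number 1 libraries. The kidney paired box gene pax8.L had 6.59, 6.9 and 5.06 TPM in FG_BIO and 0.93, 0.23 and 0.07 in HG_BIO (log2 difference −2.39, SE 0.40, adjusted p = 0.000211), and among the 2 hindgut-high members was osr1.L, a zinc finger gene of intermediate mesoderm, with 16.2, 18.1 and 20.4 TPM in HG_BIO and 1.88, 0.91 and 2.58 in FG_BIO (log2 difference 2.83, SE 0.30, adjusted p = 3.08e-07). Of 66 paraxial mesoderm features 11 were hindgut-high and 15 foregut-high under BIO (median −0.02), beside 17 and 7 in vehicle (median 0.08). The 11 became 7 without FG_BIO replicate 1 or FG_BIO replicate 3, and the 15 became 7 without FG_BIO replicate 1, 9 without HG_BIO replicate 2 and 8 without HG_BIO replicate 3. The 7 in vehicle became 4 without FG_DMSO replicate 1 and 12 with the replicate block. The list summed to 1291, 638 and 678 TPM in HG_BIO and 1093, 739 and 811 in FG_BIO. Contractile muscle genes had 2 of 38 features hindgut-high under BIO, beside 2.65% of all features tested. The 2 became 0 without FG_BIO replicate 2, HG_BIO replicate 1 or the number 1 libraries and 1 without FG_BIO replicate 1, FG_BIO replicate 3 or HG_BIO replicate 2. One of them, actc1.S, an embryonic cardiac and skeletal actin, had 60.6, 11.3 and 9.54 TPM in HG_BIO and 3.53, 0.62 and 0.44 in FG_BIO (log2 difference 3.19, SE 0.92, adjusted p = 0.0393). Its call was lost without FG_BIO replicate 2 (adjusted p = 0.118), FG_BIO replicate 3 (0.139), HG_BIO replicate 1 (0.213), HG_BIO replicate 2 (0.058) or the number 1 libraries (0.0891).

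A few replication genes were lower in hindgut, 7 of them in both conditions. Of 85 cell cycle and replication features 9 were foregut-high and 0 hindgut-high under BIO (median −0.27), and 10 and 0 in vehicle (median −0.30). The helicase subunit gene mcm6.2.S had 88.8, 99.1 and 86.5 TPM in FG_BIO and 52, 59.8 and 50.8 in HG_BIO, with no overlap (log2 difference −0.75, SE 0.15, adjusted p = 0.00256), and its call was lost without the number 1 libraries (adjusted p = 0.0529). The 9 became 5 without FG_BIO replicate 1, FG_BIO replicate 2, HG_BIO replicate 2 or HG_BIO replicate 3, 2 without the number 1 libraries, 5 with median-of-ratios scaling and 14 with the replicate block. The 10 in vehicle became 3 without FG_DMSO replicate 1, 6 without HG_DMSO replicate 2 and 5 without HG_DMSO replicate 3. Of 54 epidermis features 6 were foregut-high and 5 hindgut-high (median 0.18), beside 7 and 3 in vehicle. These became 3 and 2 without the number 1 libraries, the 6 became 3 without FG_BIO replicate 2 or HG_BIO replicate 1, and the 5 became 2 without FG_BIO replicate 1, 1 without FG_BIO replicate 3 or HG_BIO replicate 2 and 3 without HG_BIO replicate 3. The 3 in vehicle became 1 without FG_DMSO replicate 1 or HG_DMSO replicate 2 and 5 with the replicate block. The keratin gene krt19.S had 168, 122 and 119.9 TPM in FG_BIO and 19.6, 20.6 and 16.6 in HG_BIO (log2 difference −2.78, SE 0.34, adjusted p = 2.71e-06). Of 53 p53 and cell death features 1 was hindgut-high and 0 foregut-high under BIO (median 0.12), beside 3 and 2 in vehicle. Over all features tested 2.65% and 2.73% were called so under BIO, and the list did not exceed these shares. The 1 was ccng2.S, a cyclin, with 51.4, 36 and 49.3 TPM in HG_BIO and 11.8, 14.8 and 22.1 in FG_BIO (log2 difference 1.46, SE 0.30, adjusted p = 0.00235). It was not called without the number 1 libraries (adjusted p = 0.0981) or in a fit to the groups compared alone (0.0594). The 3 in vehicle became 1 without HG_DMSO replicate 1 or HG_DMSO replicate 3.

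Regional genes were also chosen in libraries outside the inhibitor experiment, which share none with the BIO or vehicle groups. In unheated transgenic embryos 400 features differed between the regions (1.39%), and those at least 2-fold apart made sets of 186 hindgut-high and 205 foregut-high. In a fit to the groups compared alone the count was 0, as it was for separated mesoderm and endoderm. These sets therefore rest on the spread estimated over all libraries, the BIO ones included. Under BIO 123 of the 186 (66.1%) were called hindgut-high, and in vehicle 139 (74.7%), with medians of 1.79 and 2.23. Of the 205 foregut-high features 94 (45.9%) were called foregut-high under BIO and 177 (86.3%) in vehicle, with medians of −0.99 and −2.58. Of the 111 not called under BIO 54 had a called shift. The medians are read beside −0.01 and −0.12 over all features. The 400 became 245 without FG_noHS replicate 2 and 224 without one of the HG_noHS libraries, which carry no number that matches the labels. That HG_noHS library had 7.11% of its TPM in its top feature. With the sets then chosen anew, the foregut-high median under BIO ranged from −1.16 to −0.39 and was −0.39 without FG_noHS replicate 1 and −0.67 without FG_noHS replicate 2. With 1 library left out the 66.1% ranged from 53% to 71.4% and the 45.9% from 32% to 47.7%. Without the number 1 libraries of the inhibitor experiment these shares were 50.9% and 39.2%.

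Separated mesoderm gave 679 regional features (2.35%). Of its 250 foregut-high features 69 (27.6%) were called foregut-high under BIO and 206 (82.4%) in vehicle, with medians of −0.39 and −2.36, and 84 of the 181 not called under BIO had a called shift. Of its 378 hindgut-high features 169 (44.7%) were called hindgut-high under BIO and 237 (62.7%) in vehicle, with medians of 0.95 and 1.49. The 44.7% became 29.1% without the number 1 libraries, and the 679 became 363 without FG_meso replicate 1 and 441 without FG_meso replicate 2. Samples titled hindgut mesoderm carry the tissue entry endoderm, and the title was followed here. Separated endoderm gave 5355 regional features (18.6%), 8617 without FG_endo replicate 2. In its sets 14.9% of 2530 hindgut-high and 15.9% of 1375 foregut-high features were called the same way under BIO, beside 15% and 22.5% in vehicle. The hindgut-high median was 0.18 in vehicle and 0.36 under BIO, and the foregut-high median −0.27 and −0.28. The 14.9% became 30.5% without FG_endo replicate 1, the library with the fewest features at 1 TPM, and 9.86% without FG_BIO replicate 1, and the 15.9% became 10.5% without FG_BIO replicate 1.

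**Figure D5:**
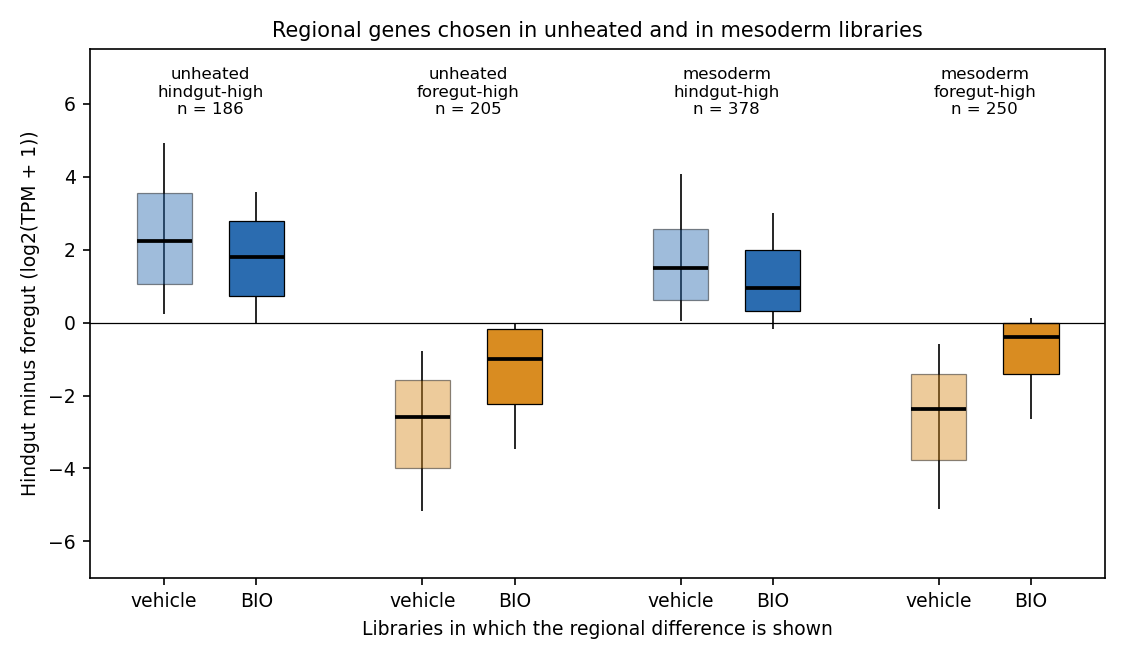
Hindgut minus foregut differences (log2(TPM + 1)) in vehicle (pale) and under BIO (dark) for genes chosen as regional in unheated or in mesoderm libraries, with the number of features above each pair. Boxes span the middle 50% with the median as a bar, and lines run from the 10th to the 90th percentile. The hindgut-high medians are 2.23 and 1.79 (unheated) and 1.49 and 0.95 (mesoderm), and the foregut-high medians −2.58 and −0.99, and −2.36 and −0.39.

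Under DMH1, given for comparison, 2839 features differed between hindgut and foregut (9.84%), and the regional difference under BIO differed from that under DMH1 in 281 (0.974%), 119 toward hindgut and 162 toward foregut. Without the number 1 libraries the DMH1 count was 1742. Its split was 1327 hindgut-high and 1512 foregut-high, or 1526 and 1092 with median-of-ratios scaling and 915 and 827 without the number 1 libraries. In the foregut-high direction the BIO comparison had 789 features and the DMH1 comparison 1512.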

How the data were processed

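RNA was taken from Xenopus laevis gut explants, and TruSeq stranded mRNA libraries were sequenced, per the labels' protocols. FastQC, Trimmomatic and RSEM are named in the submitters' processing notes, whose versions, genome build and annotation are not given in the sources used here. The deposited values are TPM per gene model from the authors, which hold no depth. The table's 37 value columns were matched by name to samples (33) or to a group only (4), and 1 empty line was dropped.

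limma 3.58.1 (R 4.3.3, trend) was fitted to log2(TPM + 1) of 15 groups, for 28863 features (71.7% of 40271) that reached 1 TPM in 2 or more libraries, with 22 residual degrees of freedom. Among the 15 were dorsal tissue, and foregut and hindgut of transgenic embryos heated to 37 °C for 30 min and then kept at 13 °C. Those groups entered the filter and the spread, and no comparison. Calls had a Benjamini-Hochberg adjusted p under 0.05. Differences on this scale understate those of low genes. The labels call replicates independent biological ones. Same-numbered BIO and vehicle libraries deviated from their group means together (correlations 0.265 to 0.557 over 18 pairs), so the numbers, which come from the labels, pair the samples. The main fit did not use this pairing, and a replicate block was an alternative. Others were pseudocounts of 0.1 and 5, a filter at 5 TPM or none, median-of-ratios scaling, homeologs summed, germ layer libraries left out, only the groups compared, and each library left out. Leaving out the number 1 libraries was chosen after seeing the data.

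Genes named by rule were the 12 highest and 12 lowest differences under BIO and the 8 highest and 8 lowest shifts (symbol, at least 2-fold, at least 5 TPM in the higher group, no overlap under BIO for the former), with their homeologs, up to 4 called examples per list, and fixed candidates. The members and the 23 gene lists were chosen with earlier results of these data known. Some genes named by rule are not reported here. Figures used matplotlib 3.10.9.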

Additional observations from a re-analysis of the deposited data

Results flagged for a closer look

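The BIO effect differed between the tissues, by the test of the regional difference under BIO against that in vehicle, for 184 features that shifted toward hindgut and 55 that shifted toward foregut. Among the genes named by rule, the shift toward foregut was −2.88 for cdx1.S, −3.72 for cdx4.L, −3.35 for cdx4.S, −2.95 for cdx2.L and −3.79 for cdx2.S, the caudal genes, on the log2(TPM + 1) scale. It was −2.70 for axin2.L, −4.07 for sp5.L and −3.95 for sp5.S, the feedback genes, and −3.49 for pax3.L, −3.49 for hes2.L and −3.46 for lmx1b.1.S. The shift toward hindgut was 6.59 for pitx1.L and 5.36 for cyp26c1.S. In the myeloid list it was 4.79 for spib.L, 4.11 for spib.S, 4.64 for ncf1.L and 4.64 for mpo.L, and in the cardiac list 3.75 for nkx2-5.L and 2.74 for nkx2-5.S. Each of these passed limma's test at an adjusted p under 0.05 with all libraries at a pseudocount of 1. At a pseudocount of 0.1 the shifts of mpo.L (adjusted p = 0.0922), nkx2-5.L (0.0543), nkx2-5.S (0.308), pax3.L (0.0936), hes2.L (0.303) and lmx1b.1.S (0.0543) did not pass. With only the groups compared, those of cdx4.L (0.0614), cdx4.S (0.0503), cdx2.L (0.0502), cdx2.S (0.0526), nkx2-5.L (0.0541), pax3.L (0.0661) and lmx1b.1.S (0.071) did not. Without the number 1 libraries those of axin2.L (0.104), pax3.L (0.0503) and hes2.L (0.0778) did not, nor did mpo.L with homeologs summed (1) or hes2.L without HG_DMSO replicate 2 (0.0516). The shift of pax3.L was lost without FG_DMSO replicate 3 (adjusted p = 0.061), FG_BIO replicate 1 (0.0571), FG_BIO replicate 2 (0.0525), HG_DMSO replicate 1 (0.0812), HG_BIO replicate 2 (0.0659) or HG_BIO replicate 3 (0.0654).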

How the results depend on the processing

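Under BIO the hindgut-high count was 1251 with the replicate block, 369 without the number 1 libraries, 378 with only the groups compared and 395 to 690 with one library left out, and the foregut-high count 423, 469 and 417 to 723 under the last 3. In vehicle these were 420 and 858 without the number 1 libraries and 281 and 560 with only the groups compared, and the foregut-high count 955 to 1336 with one library left out. Shifts toward hindgut numbered 108 at a pseudocount of 0.1, and shifts toward foregut 35 there, 35 with homeologs summed, 91 with the block, 36 without the number 1 libraries and 23 with only the groups compared. The DMH1 count was 1742 without the number 1 libraries, and the BIO against DMH1 count 173 at a pseudocount of 0.1 and 161 with homeologs summed. With one library left out the unheated, endoderm and mesoderm counts were 224 to 298, 3739 to 8617 and 363 to 479, and 0, 0 and 0 with only the groups compared. The foregut BIO-against-vehicle count was 1119 without the number 1 libraries, 1114 with only the groups compared and 1041 to 1855 with one library left out. The hindgut count was 24 at a pseudocount of 5, 14 with no filter, 25 with median-of-ratios scaling, 68 with the block, 65 without germ layer libraries, 5 without the number 1 libraries, 0 with only the groups compared and 1 to 25 with one library left out.

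For sets chosen in unheated libraries the hindgut-high median was 2.72 at a pseudocount of 0.1 and 1.29 to 2.29 with one library left out, and the foregut-high median −1.67, −1.41 with a filter at 5 TPM, and −1.16 to −0.39. For mesoderm the hindgut-high share was 29.1% without the number 1 libraries and the median 0.66 to 1.39, and the foregut-high median −0.84 and −0.67 at that pseudocount and filter. For endoderm the hindgut-high share was 24.5% at a pseudocount of 5, 8.35% without the number 1 libraries and 9.86% to 30.5%, with a median of 0.13 to 0.55, and the foregut-high share 9.68% without the number 1 libraries and 10.5% to 16.9%, with a median of −0.19 under median-of-ratios scaling. The causes were not tested. Which direction held more calls turned in some settings. Under BIO 766 hindgut-high and 789 foregut-high features became 954 and 658 with median-of-ratios scaling (median of all features −0.01 and 0.02), 797 and 745 at a pseudocount of 5, 771 and 766 with a filter at 5 TPM and 1251 and 1125 with the block. Under DMH1 1327 and 1512 became 1526 and 1092 with that scaling and 915 and 827 without the number 1 libraries. In unheated embryos 191 and 209 became 256 and 224 with that scaling, and for BIO in hindgut 5 higher and 3 lower became 10 and 15 (median 0.01 and −0.01), 4 and 5 at a pseudocount of 0.1, 4 and 6 with a filter at 5 TPM and 29 and 39 with the block. The depth of the TPM values is unknown, so which low genes lie at the limit of detection cannot be given.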
